A study of Mus musculus with 48 samples.

Results

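The lacrimal glands of mice that cannot make estrogen were compared between the sexes. Of the 48 arrays of the series, 12 carried lacrimal RNA of homozygous aromatase knockout mice and were chosen by that label. They comprised 3 pools of glands from females and 3 from males, each pool from 5 to 8 mice and each hybridised to an Affymetrix array (6 arrays) and, from the same labelled preparation, to a CodeLink array (6 arrays). The question was which autosomal genes still differ between females and males when no estrogen is made. Age-matched wild type mice of both sexes, again as 3 lacrimal pools a sex on both array types (12 arrays), and the meibomian glands of the knockout mice (12 arrays) served only for comparison. The sources used here give neither the strain, the age nor the hormone levels of the mice, and the knockout removes aromatase from the whole animal, not from the gland alone.

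Aromatase (gene symbol Cyp19a1) converts androgens to estrogens, so a knockout female has ovaries and a knockout male has testes, but neither sex can form estrogens of its own. The lacrimal gland is an exocrine gland whose acinar cells secrete the water and most of the proteins of tears. It is a known site of sex differences in structure and gene expression in rodents, many of which depend on androgens. Tissue kallikreins, secretoglobins, lipocalins and proline-rich peptides are typical products of rodent lacrimal and salivary glands, and several families among them are known to respond to androgens in the mouse submandibular gland.

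Values are given as scaled signals, that is, the deposited Affymetrix signal plus a pseudocount of 4.4, scaled so that all arrays share 1 median, in arbitrary units and in the order of pools 1, 2 and 3. A sex difference is the log2 value in females minus that in males, so that a positive value is higher in females. A gene passed where its p-value in limma's moderated test, adjusted by the Benjamini-Hochberg method over all genes tested, was below 0.05. A fold is a bound where the lower group lay under the pseudocount. The p-values measure the spread between pools, which is the only replication in these data. In pooled whole glands, fewer cells of a type and less RNA per cell cannot be told apart.

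The pools matched their labelled sex. Xist, the RNA that silences an X chromosome, differed by 5.14 (SE 0.33), and the Y-linked gene Eif2s3y by -4.71. Tear protein genes were abundant, and their summed signal was 66659, 67609 and 68514 in the female and 68801, 53552 and 74161 in the male pools. Male pool 2 stood apart on Affymetrix, with the highest array median (20.8, against 12.2 to 17.1 in the other 5) and the lowest mean correlation with its own group (0.9524). Salivary gland markers split the pools within each sex. Their summed signal, Smr2 included, was 21967, 10253 and 500.2 in females and 1004, 6492 and 736 in males, so that female pools 1 and 2 and male pool 2 carried most of it. Among these markers, Bpifa2, a salivary secretory protein, was 7897, 6091 and 22.2 in females and 8.77, 3759 and 4.90 in males, and it was present in all wild type pools, at 6006, 2253 and 1768 in females and 1407, 2718 and 1749 in males. The part of these markers in the results was not tested beyond the counts given without these pools.

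In the knockout lacrimal gland 462 of 7212 autosomal genes tested (6.41%) differed between the sexes, 217 higher in females (3.01%) and 245 higher in males (3.4%). The differences were at least 1 log2 unit for 240 genes (3.33%), 97 higher in females (1.34%) and 143 in males (1.98%). At least 4 log2 units separated the sexes for 8 genes higher in males and 3 higher in females. Besides these, 15 of 211 X-linked genes and both Y-linked genes tested passed. Of the 462 genes, 455 had no overlap between the female and the male pools, which follows largely from choosing them by a test on these same pools. Over all autosomal genes tested 1707 (23.7%) were without overlap, 9.66% with the males above and the rest with the females above. The counts leaned on single pools: they were 218 without female pool 1, 286 without female pool 2 and 235 without male pool 1. Without male pool 2, 597 genes passed, 162 higher in females and 435 in males, and without male pool 3, 536 passed, 373 and 163. The majority also moved with the scaling, the pseudocount and a covariate: females and males had 453 and 362 genes after centring on the 75th percentile, 334 and 400 after quantile normalisation, 242 and 186 with a pseudocount at the 5th percentile, 163 and 344 with one at the 40th and 230 and 158 with the salivary marker sum as a covariate. No majority of either sex therefore held over these settings. With only the pools low in salivary markers (1 female and 2 male pools), 138 genes passed, 43 higher in females and 95 in males. Of 121 genes named here that passed, 49 no longer passed when some single knockout pool was left out, and 72 did not pass with only the pools low in salivary markers.

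**Figure D1:**
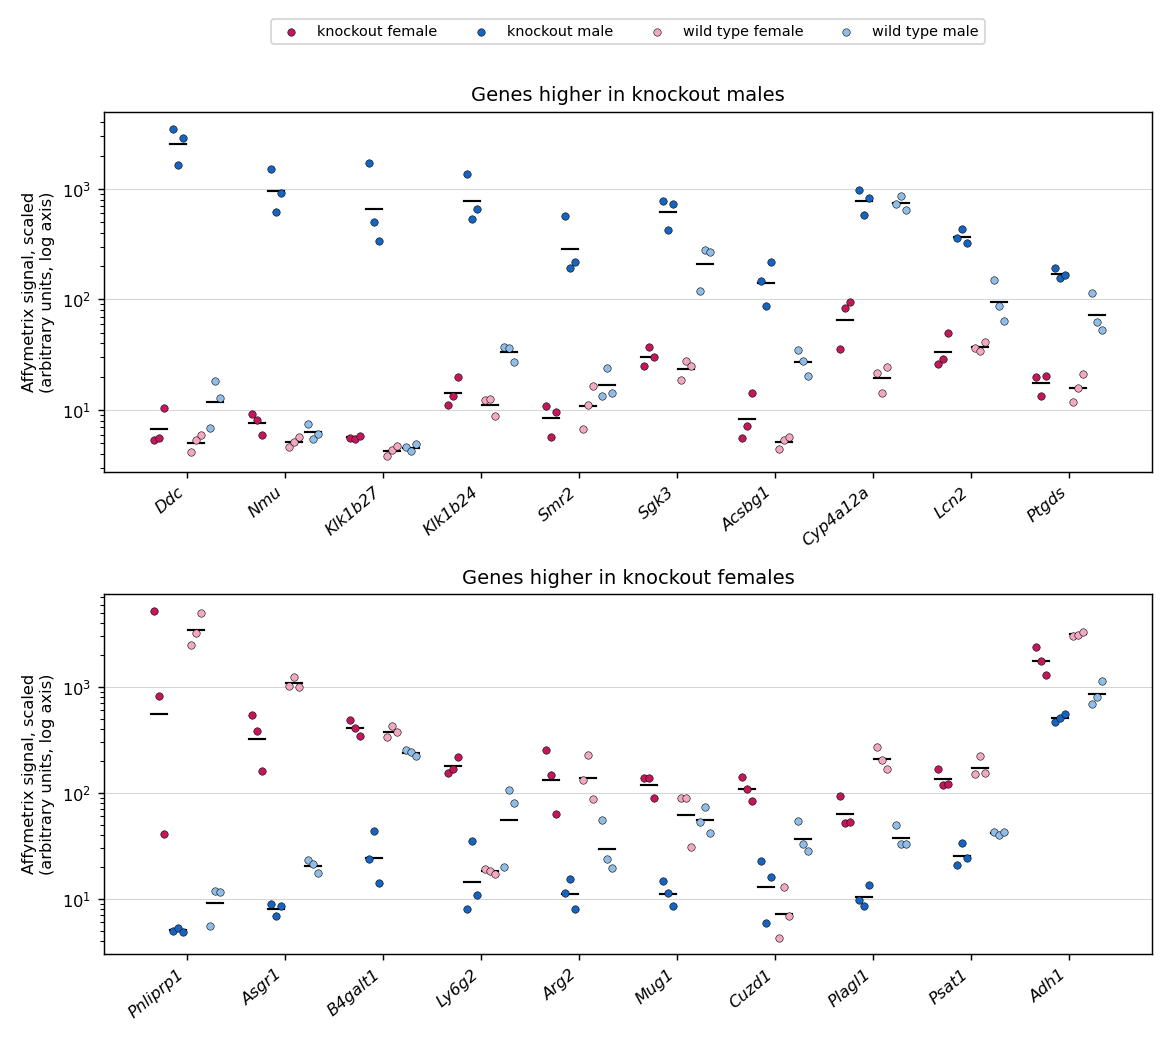
Scaled Affymetrix signals (log axis, arbitrary units) of 10 genes higher in knockout males (top) and 10 higher in knockout females (bottom), 1 symbol per lacrimal pool for knockout and wild type females and males, with a bar at each group's mean of the log values. In every gene drawn the knockout females lie apart from the knockout males, from Ddc (3504, 1652 and 2897 in males, 5.38, 5.63 and 10.4 in females) to Pnliprp1 (5249.7, 824 and 40.9 in females, 5.01, 5.34 and 4.90 in males).

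The largest difference was in Ddc on chromosome 11, which encodes aromatic amino acid decarboxylase, the enzyme that forms dopamine and serotonin. Ddc signal was 5.38, 5.63 and 10.4 in females and 3504, 1652 and 2897 in males. All female pools were near the floor and all male pools were among the bright signals of the array, at least 377-fold higher, with a sex difference of -8.56 (SE 0.35, adjusted p = 6.30e-12). On CodeLink, Ddc differed by -6.32 (SE 0.50, adjusted p = 1.95e-05). The wild type pools were near the floor in both sexes, at 4.13, 5.32 and 5.91 in females and 6.84, 18.4 and 12.8 in males. The high level in the knockout males was thus absent from the wild type males, and the difference between the genotypes' sex differences was -7.34 (SE 0.50, adjusted p = 2.62e-08).

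Nmu on chromosome 5 encodes neuromedin U, a peptide that contracts smooth muscle and reduces feeding. Its signal was 9.16, 8.14 and 5.99 in females and 1520.1, 622 and 914 in males. The male mean stood at least 124-fold above the female mean, with no overlap and a sex difference of -6.96 (SE 0.31, adjusted p = 1.42e-11). On CodeLink the difference was -8.28 (SE 0.39, adjusted p = 6.53e-07). In wild type glands the gene was near the floor in both sexes, at 4.64, 5.13 and 5.70 in females and 7.52, 5.50 and 6.08 in males. Of the 18 tested genes in a list of neuropeptide, monoamine and growth factor products, 6 were higher in knockout males and none in females, against 3.4% and 3.01% of all genes. Besides Ddc and Nmu these were the growth factors Fgf1 (-1.49), Pgf (-1.26), Tgfb1 (-1.24) and Pdgfa (-0.82). Ddc and Nmu, near the floor in the other groups, were bright enough to be tested only through their high knockout male pools. For these 2 genes the count is therefore not independent of the difference. The list's median was -0.44, against 0.07 over all autosomal genes, and 3 to 6 members were higher in males when 1 knockout pool was left out. It was 3 without female pool 1, female pool 2 or male pool 1, and 3 with only the pools low in salivary markers. The calls lost on leaving out 1 pool were Pdgfa without female pool 1, 2 or 3 or male pool 1, Pgf without female pool 1 or 2 and Tgfb1 without female pool 1, 2 or 3 or male pool 1 or 3.

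The tissue kallikreins are secreted serine proteases encoded in a cluster on chromosome 7. Of 5 tested members 4 were higher in males and none in females, against 3.4% and 3.01% of all autosomal genes. Klk1b27 signal was 5.61, 5.51 and 5.87 in females and 1709, 499 and 334 in males. The male mean was at least 116-fold above the female mean, which was at the floor, and the sex difference was -6.86 (SE 0.42, adjusted p = 1.80e-09). Klk1b24 was 10.99, 13.3 and 19.97 in females and 1352, 532 and 659 in males, a difference of -5.77 (SE 0.30, adjusted p = 1.64e-10). Klk1b21 was 10.2, 8.38 and 14.1 in females and 391, 158 and 110.2 in males, a difference of -4.15 (SE 0.45, adjusted p = 5.67e-06). The female and male pools did not overlap for any of these genes, and male pool 1 was the highest each time. With only the pools low in salivary markers Klk1b24 differed by -5.56 (adjusted p = 9.44e-07). Klk1b11, which unlike them was well above the floor in females, was 119.7, 149 and 164 in females and 1008, 484 and 515 in males, a difference of -2.14 (SE 0.24, adjusted p = 8.73e-06). Klk1b27, Klk1b24 and Klk1b21 were dim in the other groups, so their high knockout male pools helped them past the brightness filter. For these genes the count is therefore not independent of the difference. Without any 1 of the male pools, 4 members were tested and 3 were higher in males. Of 14 listed kallikreins on the array only 5 were bright enough to be tested, and the 4 genes given above were higher in males. The fifth, Klk1, the main kallikrein of kidney and salivary gland, was 570.3, 118 and 7.49 in females and 11.3, 51.6 and 8.98 in males and did not pass (2.20, adjusted p = 0.316). Its female pools fell in the order of the salivary marker sums.

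Over all 15 genes of the family on the Affymetrix array, tested or not, every male pool was above every female pool for 7, against 7.24% of all autosomal genes on the array. On CodeLink this held for 8 of 15, against 15.5% of all autosomal genes there. Of the list members kept there by the same filter on brightness, 6 of 8 were higher in males, against 7.93% of the autosomal genes tested. That filter again counted the high knockout male pools. Klk1b27 differed there by -5.42 (SE 0.48, adjusted p = 4.15e-05), Klk1b21 by -2.94 (SE 0.37, adjusted p = 4.29e-04), Klk1b11 by -2.73 (SE 0.34, adjusted p = 4.29e-04), Klk1b1 by -3.10 and Klk1b8 by -2.91. CodeLink signals of Klk1b24 were 56.6, 18.8 and 1.18 in females and 169, 63.3 and 59.2 in males, and there the gene missed the threshold (adjusted p = 0.189). Klk1b5 on CodeLink was 74.2, 23.3 and 0.925 in females and 3.52, 8.92 and 2.40 in males and did not pass. The female pools of both genes again followed the order of the salivary marker sums. In wild type glands Klk1b27, at 3.87, 4.31 and 4.77 in females and 4.63, 4.23 and 4.88 in males, and Klk1b21, at 7.05, 13.5 and 21.96 in females and 17.8, 14.5 and 6.94 in males, were near the floor in both sexes, whereas Klk1b11, at 63.4, 75 and 83.3 in females and 251, 182 and 195 in males, was higher in males (-1.50, adjusted p = 3.74e-04). These genes have near-identical paralogs, and whether each probe set separates them was not tested.

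**Figure D2:**
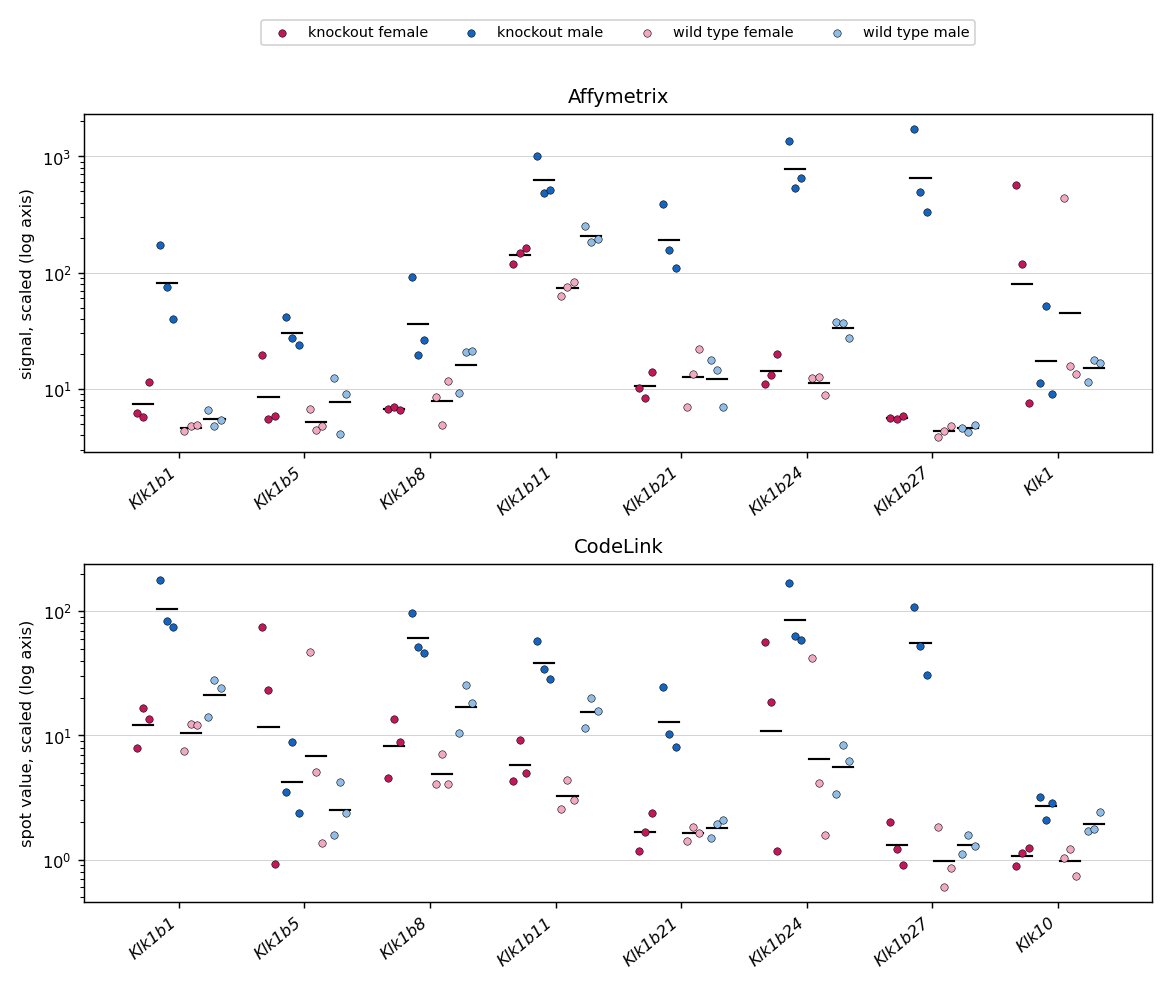
Scaled signals of 8 tissue kallikrein genes on Affymetrix (top) and 8 on CodeLink (bottom) in the lacrimal pools, on log axes in arbitrary units, 1 symbol per pool of knockout and wild type females and males, with a bar at each group's mean of the log values. Klk1b27, Klk1b24, Klk1b21 and Klk1b11 are high in the 3 knockout male pools on Affymetrix, while Klk1 ranges from 7.49 to 570.3 among the knockout females.

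The promoter windows of the kallikreins that moved together, and of Klk1, which did not pass, are shown so that their letters can be compared. Each runs from 250 bases before to 50 bases after the annotated start, on the gene's strand, 5′ to 3′, as RefSeq gives it for build GRCm38.p6, and capitals mark the hexamer AGAACA, 1 arm of the androgen receptor element, on either strand. The windows lie on the plus strand at chr7:44052040-44052339 for Klk1b27, chr7:44187986-44188285 for Klk1b24, chr7:44102042-44102341 for Klk1b21, chr7:43995627-43995926 for Klk1b11 and chr7:44225110-44225409 for Klk1.
Klk1b27: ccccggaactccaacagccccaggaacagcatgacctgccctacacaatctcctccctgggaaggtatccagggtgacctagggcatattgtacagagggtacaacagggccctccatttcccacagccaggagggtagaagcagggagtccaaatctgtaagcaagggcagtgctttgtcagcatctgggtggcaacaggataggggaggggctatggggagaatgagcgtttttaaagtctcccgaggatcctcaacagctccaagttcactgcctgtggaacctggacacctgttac
Klk1b24: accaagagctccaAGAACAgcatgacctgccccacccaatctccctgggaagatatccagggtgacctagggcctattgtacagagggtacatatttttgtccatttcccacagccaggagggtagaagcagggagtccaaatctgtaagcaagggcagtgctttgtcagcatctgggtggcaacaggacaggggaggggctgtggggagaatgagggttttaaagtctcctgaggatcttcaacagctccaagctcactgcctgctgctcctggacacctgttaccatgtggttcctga
Klk1b21: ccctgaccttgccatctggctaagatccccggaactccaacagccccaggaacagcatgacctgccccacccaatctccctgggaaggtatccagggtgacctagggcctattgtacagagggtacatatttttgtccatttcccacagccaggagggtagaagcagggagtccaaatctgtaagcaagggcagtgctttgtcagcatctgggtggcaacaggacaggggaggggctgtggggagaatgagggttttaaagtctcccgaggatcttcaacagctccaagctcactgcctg
Klk1b11: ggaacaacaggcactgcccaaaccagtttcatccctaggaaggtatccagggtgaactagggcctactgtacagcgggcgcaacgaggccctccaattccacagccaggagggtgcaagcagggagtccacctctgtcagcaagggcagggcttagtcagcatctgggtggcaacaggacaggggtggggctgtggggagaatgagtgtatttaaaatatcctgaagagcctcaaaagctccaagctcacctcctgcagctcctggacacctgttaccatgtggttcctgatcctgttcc
Klk1: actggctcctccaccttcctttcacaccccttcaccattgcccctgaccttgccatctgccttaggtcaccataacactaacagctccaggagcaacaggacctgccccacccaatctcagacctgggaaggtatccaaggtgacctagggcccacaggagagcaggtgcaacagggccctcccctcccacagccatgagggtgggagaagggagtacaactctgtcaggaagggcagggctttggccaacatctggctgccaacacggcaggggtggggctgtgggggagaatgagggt

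The hexamer occurs once in the Klk1b24 window and not in the windows of Klk1b27, Klk1b21, Klk1b11 or Klk1. The windows of Klk1b24 and Klk1b27 share 83.1% of aligned bases, those of Klk1b21 and Klk1b27 79.4%, and those of Klk1b11 and Klk1b21 61.3%. The Klk1 window shares 43.7% to 59.7% with these 4. Across the 14 kallikrein windows, identity ran from 40.3% to 90.4% with a median of 75.5%. The hexamer was found in 16.3% of 227 promoters of the genes higher in knockout females and in 13.7% of 241 promoters of those higher in males. It was found in 12.3% of 7598 promoters of all autosomal genes tested and in 19% of 31396 autosomal promoters. The full palindromes, AGAACA followed by NNN and TGTTCT for the androgen receptor and AGGTCA followed by NNN and TGACCT for the estrogen receptors, were in 3 and 7 of all autosomal promoters (0.00956% and 0.0223%) and in none of the genes that differed between the knockout sexes. A match is a run of letters in this window and says nothing of binding.

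Other secreted products were higher in knockout males. Smr2, a submaxillary gland protein known to be regulated by androgens, was 10.9, 5.75 and 9.61 in females and 572, 191 and 218 in males, at least 34.1-fold higher in males with no overlap (-5.09, SE 0.40, adjusted p = 5.55e-08). On CodeLink it differed by only -1.43 (adjusted p = 0.00291), so the array types disagree on its size. It is on the list of salivary markers, but its order among the pools was not that of the other salivary markers: male pool 1, the highest in Smr2, had the lowest sum of the others among the 6 knockout pools (432.2). Lcn2, a lipocalin that binds bacterial siderophores, was 26.2, 29.1 and 49.2 in females and 362, 433 and 322 in males (-3.46, SE 0.27, adjusted p = 5.99e-08). Ptgds, which makes prostaglandin D and also serves as a lipid carrier, was 20.03, 13.3 and 20.5 in females and 193, 155 and 168 in males (-3.28, SE 0.28, adjusted p = 2.08e-07), and on CodeLink it differed by -3.85. For both genes the lowest male pool lay well above the highest female pool. Wfdc12, a whey acidic protein with protease inhibitor activity, was 2043, 3015 and 2811 in females and 9347, 7570.2 and 10053 in males, and Prol1, a proline-rich tear peptide, was 63.4, 86.96 and 271 in females and 955, 339.8 and 584 in males. Both were without overlap and passed (-1.79 and -2.33), Prol1 with the larger spread (SE 0.57). Prol1 no longer passed without female pool 1, female pool 2 or male pool 1 (adjusted p = 0.109, 0.0721 and 0.0931).

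Male-higher genes of lipid metabolism and signalling included some of the largest differences. Sgk3, a kinase of the phosphoinositide pathway, was 24.8, 37.01 and 30.2 in females and 769.7, 421 and 727 in males, 20.4-fold higher in males (-4.35, SE 0.30, adjusted p = 7.40e-09). Acsbg1, which activates long-chain fatty acids, was 5.61, 7.19 and 14.2 in females and 147, 87.4 and 216 in males, at least 16.9-fold higher (-4.08, SE 0.37, adjusted p = 4.65e-07). Cyp4a12a, a fatty acid hydroxylase known to be induced by androgens in mouse kidney, was 35.9, 83 and 94.5 in females and 983, 581 and 833 in males, 11.9-fold higher (-3.57, SE 0.30, adjusted p = 1.33e-07). All 3 genes were without overlap between the sexes, and male pool 2 was the lowest male pool each time. Thrsp, a regulator of lipogenesis, and Fasn, fatty acid synthase, were higher in males too (differences of -2.37 and -1.50). In the list of fatty acid genes, 2 of 29 tested (Acsbg1 and Fasn) were higher in males and none in females, against 3.4% and 3.01% of all autosomal genes. Olfml3, a secreted matrix protein, was 16.8, 23.7 and 21.8 in females and 284, 88.6 and 278 in males (-3.22, SE 0.33, adjusted p = 2.29e-06), and the cell adhesion gene Pcdh20 was 9.73, 9.10 and 11.5 in females and 208, 83.4 and 93.7 in males (-3.55, SE 0.35, adjusted p = 1.36e-06).

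The transcription factors Clock and Hif1a were higher in males. Clock, a driver of the circadian rhythm, was 52.8, 65.9 and 46.6 in females and 504, 185 and 519 in males (-2.74, SE 0.35, adjusted p = 3.13e-05), and on CodeLink it differed by -2.59. Hif1a, which directs the response to low oxygen, was 89.98, 120.3 and 103 in females and 598, 321 and 652 in males (-2.27, SE 0.27, adjusted p = 1.68e-05). A dimmer Hif1a probe set pointed the other way, with a difference of 1.31, so the probe sets of this gene disagree. Among 14 tested clock genes, Clock and Bhlhe40 (-1.25) were higher in males and Per1 (1.02) and Nfil3 (1.54) higher in females, so the list moved in both directions. Leaving out 1 pool ended the calls of Bhlhe40 without female pool 1 or 2 or male pool 1 or 3 and Nfil3 without female pool 1 or 2 or male pool 2 or 3. The times at which glands were collected are not given in the sources used here.

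Higher in knockout females, Pnliprp1 on chromosome 19 gave the largest difference. It encodes a pancreatic lipase-related protein with little lipase activity of its own. Its signal was 5249.7, 824 and 40.9 in females and 5.01, 5.34 and 4.90 in males, so that the males were at the floor while the females ranged widely among themselves. The difference was 6.79 (SE 0.97, adjusted p = 1.30e-04) and at least 110.5-fold, and on CodeLink 6.63 (SE 1.24, adjusted p = 0.00585). The 3 female pools had the order of their salivary marker sums. In wild type females, at 2514, 3201 and 5043, the order was the reverse of theirs (salivary sums 19291, 3518 and 2739). The Pnliprp1 difference was 5.18 without female pool 1, 8.68 without female pool 3 and 3.05 with only the pools low in salivary markers (adjusted p = 0.0016). Asgr1, a subunit of the receptor that binds galactose-ended glycoproteins in liver, was 549.5, 383 and 159 in females and 8.96, 6.83 and 8.47 in males, at least 40.2-fold higher in females (5.33, SE 0.31, adjusted p = 5.45e-10). Its female pools also had the order of the salivary marker sums, and all lay above all males. With only the pools low in salivary markers it differed by 4.19 (adjusted p = 3.99e-07). Wild type glands had the same direction for Asgr1, at 1015, 1235 and 1006 in females and 23.1, 21.1 and 17.6 in males.

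B4galt1, which adds galactose to glycan chains, was 486, 412 and 346 in females and 23.8, 43.6 and 13.98 in males, 16.9-fold higher in females (4.07, SE 0.28, adjusted p = 7.40e-09). On CodeLink it differed by 3.80 (SE 0.23, adjusted p = 3.13e-06). In wild type glands, at 339.9, 424 and 379.9 in females and 253, 242 and 221 in males, the sexes lay close together and did not pass (0.67), so the knockout males were the low group of the 4. The difference between the genotypes' sex differences was 3.40 (SE 0.40, adjusted p = 3.13e-05). Arg2, the mitochondrial arginase, was 253, 148 and 63.3 in females and 11.4, 15.4 and 7.96 in males (3.58, SE 0.44, adjusted p = 2.56e-05). Mug1, a protease inhibitor of the macroglobulin family, was 138, 138 and 89.4 in females and 14.8, 11.3 and 8.47 in males (3.41, SE 0.35, adjusted p = 2.17e-06). Cuzd1, a zymogen granule protein of the pancreas, was 142, 109.8 and 84.8 in females and 22.6, 5.92 and 16.1 in males (3.09, SE 0.44, adjusted p = 1.11e-04). In each of these 3 genes all female pools were above all male pools.

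Among regulators higher in females, Plagl1, an imprinted zinc finger transcription factor, was 93.3, 52.5 and 52.7 in females and 9.73, 8.55 and 13.6 in males (2.61, SE 0.27, adjusted p = 2.54e-06). Its CodeLink difference was 0.10 and did not pass, so the array types disagree for this gene. Sesn1, a stress-responsive sestrin, was 406, 259 and 233 in females and 69.5, 64.6 and 74.5 in males (2.06, SE 0.23, adjusted p = 8.82e-06), and it did not differ beyond the spread in wild types (0.01, adjusted p = 0.978). Homer2, a scaffold protein of calcium signalling, was 324, 262 and 337 in females and 64.2, 82.7 and 97.8 in males (1.93, SE 0.20, adjusted p = 2.29e-06). Exocytosis and granule traffic genes passed for 3 of 17 tested, against 6.41% of all autosomal genes. All 3 were higher in females: Rab3a (1.38), Sytl1 (1.01) and Rab27b (0.98), which all act in the docking of secretory vesicles. The list's median was 0.06, close to that of all genes (0.07), and 1 member passed when any 1 of the female pools was left out. Leaving out 1 pool ended the calls of Rab3a without female pool 1, 2 or 3 or male pool 2 and Rab27b without female pool 1, 2 or 3 or male pool 1 or 3. A dimmer Rab27b probe set differed by -0.15. On CodeLink 1 of 17 members was higher in females (Sytl1, 0.58) and 2 in males, against 2.06% and 7.93% of all autosomal genes tested there. There 9 differences were positive and 8 negative, so the list showed no direction on CodeLink.

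Among the gene lists, 2 of metabolic enzymes had 9 members each higher in females. Of 29 tested cytochrome P450, flavin monooxygenase and glutathione transferase genes, 9 were higher in females and 2 in males, against 3.01% and 3.4% of all genes. The median was 0.38, and 8 or 9 were higher in females when any single knockout pool was left out, but 3 with only the pools low in salivary markers. Cyp39a1, an oxysterol hydroxylase, was 175, 168 and 153 in females and 30.7, 30.01 and 45.8 in males (2.24, SE 0.21, adjusted p = 5.61e-07). Cyp2b10 was 2264, 2202 and 2279.6 in females and 1046, 891 and 1091 in males (1.16, SE 0.16, adjusted p = 1.07e-04), with no overlap, and it differed little in wild types (-0.23, adjusted p = 0.379). Cyp2b19, Gsto1, Cyp2f2, Gsta3 and Gstm5 were higher in females by 0.83 to 1.54. The 2 members higher in males were Fmo5 (-1.35), which did not pass without female pool 1, and Cyp2j13 (-1.33). On CodeLink, 3 of 28 tested members were higher in females and 2 in males, against 2.06% and 7.93% of all autosomal genes tested there.

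Amino acid metabolism and transport gave 9 of 30 tested genes higher in females and 2 in males, against 3.01% and 3.4% of all autosomal genes. The list's median was 0.52. Psat1, of serine synthesis, was 168, 119 and 122 in females and 20.8, 33.4 and 24.3 in males (2.39, SE 0.22, adjusted p = 5.61e-07), and Phgdh, Shmt2, Asns, Slc1a5, Oat and Arg1 were higher in females by 0.67 to 0.93. On CodeLink the serine and glycine enzymes Psat1, Phgdh and Shmt2 differed by 0.25, 0.27 and 0.35 and did not pass. Ggt7 and Odc1, the enzyme that makes putrescine, were higher in males (-2.23 and -0.72). The count higher in females was 4 without any 1 of the female pools, 3 without male pool 1 and 2 with only the pools low in salivary markers. The calls lost on leaving out 1 pool were Arg1, Asns and Oat without female pool 1, 2 or 3 or male pool 1, Odc1 without female pool 1 or 3 or male pool 1 or 3, Shmt2 without female pool 1 or male pool 1 and Slc1a5 without female pool 2 or 3 or male pool 1. On CodeLink 1 of 27 was higher in females and 3 in males, against 2.06% and 7.93% of all autosomal genes tested there. In cholesterol and isoprenoid synthesis, Fdft1 (2.02), Fdps (1.09) and Dhcr7 (0.78, but -0.47 on CodeLink) of 19 tested genes were higher in females and none in males, and Dhcr7 passed neither without any 1 of the female pools nor without male pool 1 or 3. Fdft1, which makes squalene, was 87.3, 41.6 and 60.2 in females and 19.5, 11.9 and 13.98 in males, but its CodeLink spot, too dim to be tested, differed by -0.28. Its dimmer Affymetrix probe sets differed by 0.96, 0.53 and 0.02.

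Genes of steroid metabolism differed in both directions. The list counts here stand against 3.01% higher in females and 3.4% in males over all autosomal genes. Of 9 tested, Akr1c18, which inactivates progesterone, was higher in females, at 1188, 965 and 758 in females and 343, 274 and 398 in males (1.51, SE 0.18, adjusted p = 2.00e-05). Sult1e1, the sulfotransferase that inactivates estrogens, was higher in males, at 18.3, 20.2 and 19.7 in females and 44.6, 38.5 and 36.2 in males (-1.03, SE 0.27, adjusted p = 0.0251), and on CodeLink the difference was -2.44. It no longer passed without any 1 of the female pools or without male pool 1 (adjusted p from 0.0654 to 0.125). Hsd11b1, which regenerates active glucocorticoid, was higher in males (-0.83), and its call was lost without female pool 1 or 2 or male pool 3. Of 10 tested steroid receptor and coregulator genes, the receptor chaperones Fkbp4 (0.95) and Fkbp5 (-0.98) passed in opposite directions, but neither passed without female pool 3 or without male pool 1, nor Fkbp5 without female pool 2 or male pool 3. The estrogen receptor gene Esr1, at 6.53, 6.11 and 7.37 in females and 7.90, 11.6 and 7.04 in males, was among the dim genes that were not tested. In a list of genes known to respond to androgens in other mouse tissues, 1 of 11 was higher in females (Gusb, 0.78) and 2 in males (Fkbp5 and Odc1), with a median of 0.16. None of the 3 passed without male pool 1, and the other calls lost were Gusb without female pool 1, 2 or 3 or male pool 1 or 2 and Odc1 without female pool 1 or 3 or male pool 1 or 3.

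Tear and acinar protein genes gave 1 of 20 tested higher in females (Cuzd1) and 4 in males. Each list count of this paragraph stands against 3.01% and 3.4% of all autosomal genes. Beside Prol1 and Wfdc12, the genes higher in males were the lysozymes Lyz2 (-0.94) and Lyz1 (-0.79), whose near-identical sequences may share signal. Lyz1 was lost without female pool 1 or 2 or male pool 1 or 3, and its dimmer probe sets differed by -0.79 and 0.40. Of the 4 genes, 2 passed without female pool 1, female pool 2 or male pool 1. The median of the list was 0.27, and under quantile normalisation it was 0.03. With only the pools low in salivary markers, which leave 1 female pool, the median was 0.12. Of 20 glycosyltransferase and mucin genes tested, B4galt1 was higher in females and 3 in males. Fut8, which adds the core fucose of N-glycans, was 71.1, 99.5 and 134 in females and 829, 405 and 777 in males (-2.70, SE 0.34, adjusted p = 3.41e-05), and on CodeLink it differed by -2.69. St6galnac2, which adds sialic acid to O-glycans, and Galnt2, which starts them, were higher in males (-1.41 and -1.18), and a dimmer St6galnac2 probe set had the opposite sign (0.66). Galnt2 did not pass without female pool 1 or male pool 1 or 3. In water and ion transport, Fxyd4, a sodium pump subunit, was the only one of 20 to pass (1.55), and it did not pass without female pool 1 or 2 or male pool 3, nor on CodeLink (0.12). Of the 20 differences 18 were positive on Affymetrix, against 8 of 16 on CodeLink.

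Genes of immune cells and of interferon responses were higher in males where they passed. Of 22 tested macrophage and dendritic cell genes, 6 were higher in males and none in females, against 3.4% and 3.01% of all autosomal genes. The list's median was -0.59. Csf1r, the receptor for the macrophage growth factor, was 51.7, 42.9 and 58.04 in females and 161, 129.9 and 116 in males (-1.41, SE 0.23, adjusted p = 6.36e-04), and C1qb (-1.11), Mpeg1 (-1.03), Lyz2 (-0.94), Clec7a (-0.91) and Mrc1 (-0.76) were the other members. Dimmer probe sets differed by -0.66 and -0.28 for Csf1r and by -0.75 and -0.53 for C1qb. The list's summed signal was 1369, 1526 and 1825 in females and 2296, 2863 and 2262 in males, without overlap and highest in male pool 2. Without male pool 2, male pool 1 or female pool 1, 3 members passed, and with only the pools low in salivary markers none did. The calls lost on leaving out 1 pool were Clec7a without female pool 1, 2 or 3 or male pool 1 or 2, Mpeg1 without female pool 1 or 2 or male pool 1 or 2 and Mrc1 without female pool 1 or 3 or male pool 1 or 2. On CodeLink 8 of 16 tested members were higher in males and none in females, against 7.93% and 2.06% of all autosomal genes tested there. Of 4 tested genes of T and NK cells, 0 passed in limma's test on Affymetrix, and 1 had an unadjusted p below 0.05. On CodeLink 2 of 10 T and NK cell genes and 2 of 9 B cell and plasma cell genes were higher in males and none in females. Of 9 B cell and plasma cell genes on Affymetrix, Igk, the immunoglobulin kappa light chain, was higher in males, at 63.4, 76.7 and 137 in females and 214, 212 and 169.9 in males (-1.18, SE 0.26, adjusted p = 0.00903), and none was higher in females. Igk did not pass without female pool 1 or 2, nor with only the pools low in salivary markers.

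Interferon-stimulated genes gave 5 of 24 higher in males and none in females, with a median of -0.52. Each list count of this paragraph stands against 3.4% higher in males and 3.01% in females over all autosomal genes. Oas1a, a sensor of viral RNA, was 15.5, 19.5 and 20.8 in females and 83.4, 72.8 and 74.1 in males (-2.05, SE 0.30, adjusted p = 1.82e-04), with all males above all females. Its CodeLink spot was too dim to be tested and differed by -0.33. Isg20 (-1.35), Oasl2 (-1.30), Gbp3 (-1.10) and Ifitm3 (-0.74) were the others, and 2 members passed without female pool 1 and 3 without female pool 3, male pool 1 or male pool 2. With only the pools low in salivary markers 1 passed. The calls lost on leaving out 1 pool were Gbp3 without female pool 1, 2 or 3 or male pool 1, Ifitm3 without female pool 1 or 3 or male pool 1 and Oasl2 without female pool 1 or male pool 2 or 3. Of 15 MHC and antigen processing genes, B2m, the light chain of class I molecules, and H2-Aa, a class II chain, were higher in males, B2m at 818, 1004 and 1106 in females and 2826, 2301 and 3073 in males (-1.49, SE 0.23, adjusted p = 2.84e-04) and H2-Aa with a difference of -0.76. Without any 1 of the female pools H2-Aa was lost and 1 of the 15 passed. On CodeLink, 9 of 13 of these genes were higher in males, against 7.93% of all autosomal genes tested there. Among 16 cytokine and chemokine genes 4 were higher in males, led by Ccl8, a monocyte chemokine, at 42.7, 57.97 and 102 in females and 262, 439 and 301 in males (-2.36, SE 0.29, adjusted p = 2.00e-05), and none in females, with 2 left without female pool 1 or male pool 1. On CodeLink 5 of 20 of these were higher in males, but Ccl4, another chemokine, was higher in females (2.53, adjusted p = 4.83e-04), and on Affymetrix it differed by 0.15 and did not pass. Fibroblast and matrix genes gave 4 of 29 higher in males (Mfap5, Col5a1, Col3a1 and Postn, -1.51 to -0.89) and none in females, with a median of -0.11. Of the 4, 2 passed without female pool 1 and none with only the pools low in salivary markers, and the calls lost on leaving out 1 pool were Col3a1 without female pool 1 and Col5a1 without female pool 1 or male pool 1 or 3. Dimmer probe sets of the matrix genes differed by -0.27 for Mfap5, by -1.19 and -0.08 for Col5a1 and by -0.89 for Col3a1. The part of the cell type markers in the other results was not tested.

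**Figure D3:**
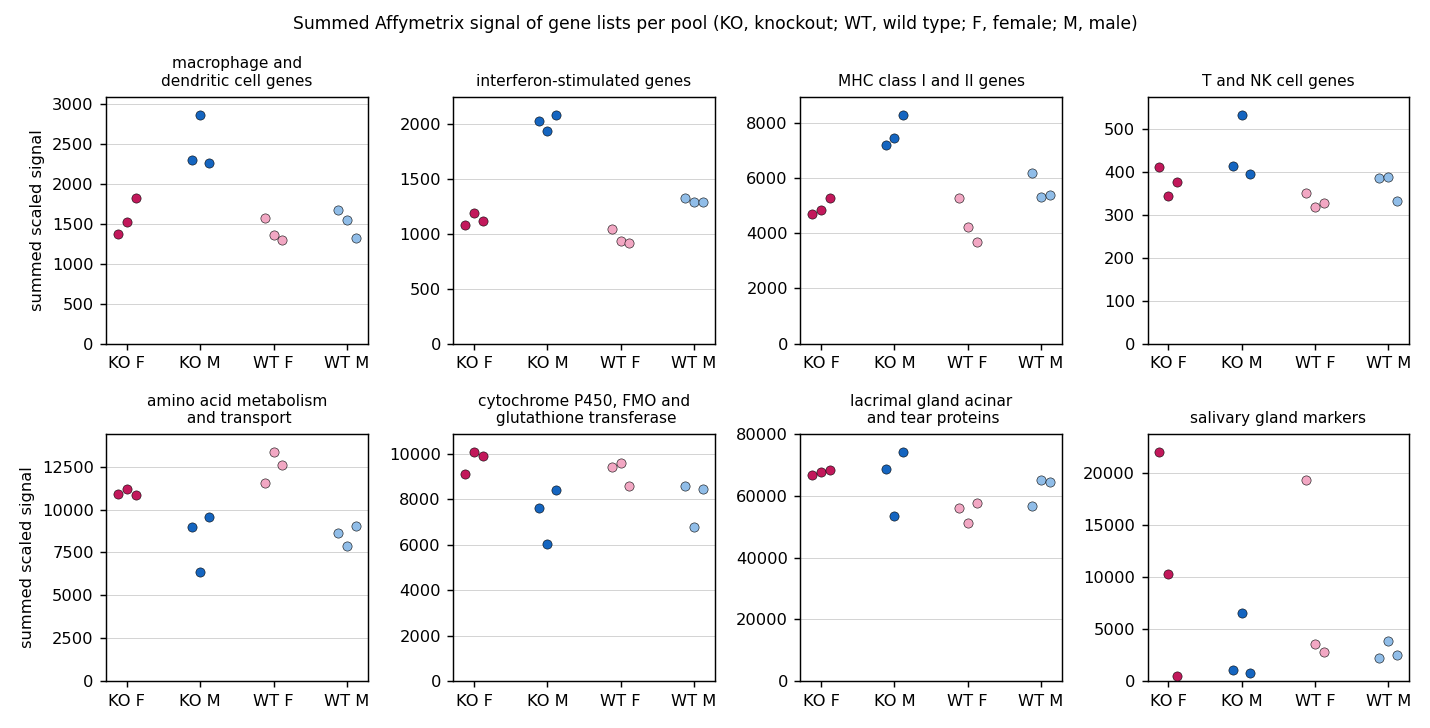
Summed scaled Affymetrix signals (arbitrary units, from 0) of 8 gene lists, 1 symbol per lacrimal pool of knockout (KO) and wild type (WT) females (F) and males (M). In knockouts the macrophage, interferon and MHC sums of the males lie above those of the females and the amino acid and P450, FMO and GST sums below, while the salivary marker sums run from 500.2 to 21967 among the female pools alone.

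Protease inhibitors moved in both directions, with 2 of 13 tested higher in females and 3 in males, against 3.01% and 3.4% of all autosomal genes. Beside Mug1, Itih2, a chain of the inter-alpha-trypsin inhibitors that bind hyaluronan, was higher in females, at 98.7, 104 and 87.8 in females and 22.6, 32.2 and 34.7 in males (1.72, SE 0.22, adjusted p = 3.86e-05). It did not pass in wild types (-0.29). Serping1, the inhibitor of complement C1, Serpinb6a and Serpina3n were higher in males (-1.06, -1.04 and -1.03), and the counts of 2 and 3 held when any single knockout pool was left out. With only the pools low in salivary markers they were 2 and 1. Of 9 complement and acute phase genes, Lcn2 and the copper carrier ceruloplasmin, Cp (-1.38), were higher in males and Hp (0.48) in females, the latter lost without any 1 of the female pools or without male pool 1. Mrap, an accessory protein of the corticotropin receptor, was the only one of 11 tested genes of the receptor list to pass, at 60.6, 59.4 and 63.7 in females and 298, 138 and 291 in males (-1.90, SE 0.27, adjusted p = 1.28e-04). In wild types Mrap was 4.13, 5.87 and 5.49 in females and 71.9, 102 and 122 in males, again with the males above the females.

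Stress genes were mixed, and their list counts stand against 3.01% higher in females and 3.4% in males over all autosomal genes. Of 19 oxidative stress and metallothionein genes, 4 were higher in males and none in females, but 1 or 2 of them passed when any single knockout pool was left out. Gpx3, a secreted glutathione peroxidase, was 30.6, 30.7 and 31.6 in females and 62.5, 48.9 and 107 in males (-1.16, SE 0.25, adjusted p = 0.00727), with no overlap. Mt2, a metal-binding metallothionein, was 41.9, 36.4 and 37.6 in females and 72.8, 84.6 and 66.1 in males (-0.94). Of 18 immediate early genes, Klf4 (-1.31) and Dusp1 (-1.10) were higher in males, Klf4 at 44.2, 42.3 and 46.2 in females and 136, 68.9 and 139.8 in males, and the list's median was -0.49. Male pool 2 was the lowest male pool for both Klf4 and Dusp1. Leaving out 1 pool ended the calls of Dusp1 without female pool 1, 2 or 3 or male pool 1 or 3 and Mt2 without female pool 1, 2 or 3 or male pool 1 or 2. Among 16 heat shock genes Cryab, a small heat shock protein of lens and muscle, was higher in females, at 327, 233 and 178 in females and 108, 82.97 and 117 in males (1.23, SE 0.24, adjusted p = 0.00288), as was Hspa8 (0.85), while Hspb8 was higher in males (-1.20). Hspa8 did not pass without any 1 of the female pools or without male pool 2. Chaperones passed for 2 of 31, both higher in females, and for none without female pool 1, female pool 3 or male pool 1. Mitochondrial respiration genes passed for 3 of 36, all higher in females, with none left without male pool 1, 1 without any 1 of the female pools and 6 without male pool 3. The array types disagreed for them. On Affymetrix 31 of 36 differences were positive, with a median of 0.23 that was 0.07 after quantile normalisation, whereas on CodeLink 30 of 33 were negative, with a median of -0.22 against -0.11 over all genes. On CodeLink none was higher in females, Cox6b1 was -0.20 against 0.87 on Affymetrix, and the respiratory chain subunits Sdhd (-0.71) and Uqcrfs1 (-0.53) were higher in males. No direction is therefore given for the list.

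Markers of other cell types passed rarely, as did all autosomal genes (3.01% higher in females and 3.4% in males). Of 18 ductal epithelial genes, 2 were higher in females (Slc12a1 and Tfcp2l1, 1.31 and 0.71) and 1 in males (Cdh1, -0.78), and all 3 fell short of the threshold without female pool 1 or female pool 2. Vwf, the von Willebrand factor of endothelial cells, was 15.2, 15.2 and 20.8 in females and 52.5, 26.7 and 64.5 in males, the only one of 13 endothelial and nerve genes to pass (-1.41, SE 0.31, adjusted p = 0.00881), and not without male pool 1. Thrsp was the only one of 7 adipocyte genes. In limma's test 0 of 9 myoepithelial and muscle genes, 0 of 4 Harderian and sebaceous lipid genes and 0 of 21 cell cycle genes passed, of which 0, 0 and 1 had an unadjusted p below 0.05. On CodeLink 2 of 6 myoepithelial and muscle genes were higher in males and 1 of 11 cell cycle genes in females. Of all autosomal genes tested there, 7.93% were higher in males and 2.06% in females.

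Wild type glands tell which of these differences also occur with aromatase. There 959 autosomal genes passed (13.3%), 718 higher in females (9.96%) and 241 in males (3.34%). The median of all genes was shifted to 0.186 in wild types and 0.066 in knockouts, and after centring on the 75th percentile, which removes the shift, the wild type split was 560 and 515. Leaving out single pools moved the wild type count to 443 without wild type male pool 2, 565 and 613 without wild type female pools 2 and 1, and 1532 without knockout male pool 2. Both genotypes passed with the same sign for 208 genes (45.0% of the knockout and 21.7% of the wild type calls), 123 higher in females and 85 in males. In wild type females 211 genes were higher by at least 1 log2 unit. Of these, 182 (86.3%) had the same sign in knockouts, against 68.3% of all autosomal genes tested. In knockouts 69 of the 211 passed with that sign, against 3.01% of all. The median difference of the 211 was 1.25 in wild types and 0.61 in knockouts. Of 133 genes that much higher in wild type males, 111 (83.5%) had the same sign in knockouts. Of the 133, 60 passed there with that sign, against 3.4% of all, and their medians were -1.45 and -0.84 over all 133. The reverse choice gave smaller medians in wild types. The 97 genes at least 1 log2 unit higher in knockout females had medians of 1.33 in knockouts and 0.95 in wild types, and the 143 higher in knockout males -1.31 and -0.73. Across all autosomal genes the correlation of both sex differences was 0.52, a description over genes, which are not independent replicates.

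**Figure D4:**
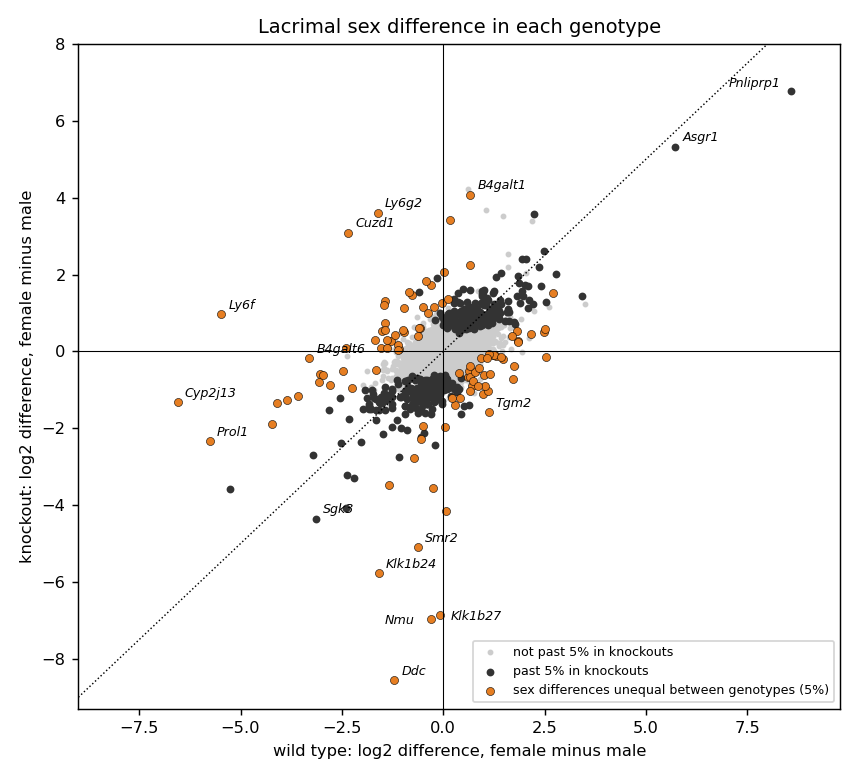
Log2 sex difference (female minus male) of each autosomal gene tested in wild type (horizontal axis) and knockout (vertical axis) lacrimal glands on Affymetrix, with genes whose sex differences differ between the genotypes in colour. Asgr1 (5.72 and 5.33) lies near the diagonal, Ddc (-1.21 and -8.56) far below it and Cuzd1 (-2.34 and 3.09) has opposite signs.

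The sex difference itself differed between the genotypes for 102 autosomal genes (1.41%), 51 in each direction. After centring on the 75th percentile these were 96 and 55, and they were 268 without knockout male pool 2 and 66 without knockout male pool 1. Of the 243 genes that passed in knockouts and not in wild types, 27 passed this test, so for most of them the data do not separate the genotypes. The genes with the largest negative values were high on Affymetrix in knockout males alone: Ddc, Klk1b27, Nmu, Smr2, Klk1b21, Klk1b24 and Pcdh20. Pcdh20, for example, was 208, 83.4 and 93.7 in knockout males and 8.29, 13.8 and 10.96 in wild type males. These genes were dim in the other groups, so their high knockout male pools helped them past the brightness filter. The filter thus favours this pattern among the genes tested. Klk1b24 also passed in wild types at lower levels, 12.3, 12.7 and 8.91 in females and 37.4, 36.7 and 27.3 in males (-1.59, adjusted p = 0.00162). On CodeLink it was 56.6 in knockout and 42.1 in wild type female pool 1. Another pattern had a wild type female group that was low alone. Cyp2j13 was 13.1, 12.1 and 14.8 in wild type females against 337, 694 and 855 in knockout females and 1525, 1074 and 1932 in knockout males. Ly6f, of a family of membrane-anchored proteins, was 40.8, 60.4 and 26.6 in wild type females, 1787, 2772 and 3270.4 in knockout females and 731, 1874 and 1582 in knockout males. B4galt6, which makes lactosylceramide, was 38.7, 55.7 and 31.4 in wild type females, 339, 491 and 471 in knockout females and 576, 342 and 577 in knockout males. For Ly6f and B4galt6 the knockout sexes did not pass (0.97 and -0.18), whereas for Cyp2j13 they still differed (-1.33, SE 0.28, adjusted p = 0.00491).

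For 11 genes both genotypes passed with opposite signs. Cuzd1, Ly6g2, Slc12a1, Wwox, Fgl2, Arg1 and Cct2 were higher in knockout females and in wild type males, while Tgm2, Slc44a3, Tbc1d24 and Mt1 were higher in knockout males and in wild type females. The knockout calls lost on leaving out 1 pool were Arg1 and Cct2 without female pool 1, 2 or 3 or male pool 1, Mt1 and Tbc1d24 without female pool 1, 2 or 3 or male pool 1, 2 or 3, Slc12a1 without female pool 1 or 2 or male pool 2 and Slc44a3 without female pool 1 or male pool 1. For Cct2 and Tbc1d24 the knockout difference had the opposite sign on CodeLink (-0.22 and 0.39) and did not pass there. Dimmer Cct2 probe sets on Affymetrix differed by 0.57 and -0.002. Cuzd1 was 4.30, 12.9 and 6.84 in females and 53.8, 32.6 and 28.2 in males in wild types, against the knockout values given above. Ly6g2 was 153, 169 and 218 in females and 8.10, 35.2 and 10.8 in males in knockouts and 19, 18.2 and 17.3 in females and 20.1, 106 and 80.4 in males in wild types, and no pools of the sexes overlapped in knockouts. Tgm2, a transglutaminase that cross-links proteins, was 46.4, 36.2 and 38.2 in females and 143, 99.99 and 122 in males in knockouts and 62.4, 66.7 and 70.3 in females and 35.6, 24.1 and 33.2 in males in wild types. Its dimmer probe sets differed in knockouts by -1.40, -1.27, -0.60, 0.02 and 0.33, so they disagree. Wwox, an oxidoreductase and tumour suppressor, was 78.5, 74.9 and 66.3 in females and 32.3, 27.96 and 35.1 in males in knockouts and 20.4, 19.4 and 18.3 in females and 57.7, 45.3 and 58.1 in males in wild types. In these genes the knockout female level was above the wild type female level where it was above the knockout male level, and below it for Tgm2.

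The meibomian glands of the same knockout groups had fewer genes that differed between the sexes. In a fit of both glands, 26 of 7220 autosomal genes (0.36%) passed in the meibomian gland, 9 higher in females and 17 in males, and 910 in the lacrimal gland. The fit of the lacrimal arrays alone gave 462, so the lacrimal count depends on the fit. The sex difference differed between the glands for 495 genes (6.86%), of which 261 were more positive and 234 more negative in the lacrimal gland. This count was 246 and 262 without meibomian female pools 3 and 1, 316 without meibomian male pool 3 and 314 without lacrimal female pool 1. The 2 glands shared 3 genes with the same sign, Per1, Srsf5 and Col14a1, and had 3 with opposite signs, Atg9b, C1qb and Cyp2b19. Col14a1 did not pass in the fit of the lacrimal arrays alone. Of the 240 lacrimal genes of at least 1 log2 unit, 212 were tested in both glands. They were chosen on the lacrimal value, so their median size of 1.3 in lacrimal against 0.20 in meibomian glands is a description. Over all autosomal genes the median sizes were 0.25 and 0.17, and the 26 meibomian genes had 0.93 in meibomian and 0.28 in lacrimal glands. Of the 212, 3 passed in the meibomian gland. Nmu in the meibomian gland was 353, 391 and 296 in females and 266, 418 and 366 in males. It was well above the floor in both sexes there, with overlap, and its difference between glands was -6.96 (SE 0.34, adjusted p = 7.88e-14). Pnliprp1 was 9.57, 17.7 and 7.12 in females and 16.5, 18.8 and 28.1 in males there, with a difference between glands of 7.74 (SE 1.21, adjusted p = 1.34e-04). B4galt1 was 224, 249.8 and 241 in females and 194, 199 and 198 in males (3.80, SE 0.32, adjusted p = 1.30e-08), so it was expressed in meibomian glands of both sexes without the gap seen in lacrimal pools. Ddc, Klk1b27, Klk1b24, Asgr1, Mug1 and Cuzd1 were too dim over both glands to be tested.

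The CodeLink arrays, which carried the same labelled RNA, bear on the probes and not on the biological spread. Of 326 of the 462 genes that were tested there, 282 had the same sign, against 56.3% of all 4480 autosomal genes tested on both. On both array types 135 genes passed with the same sign (3.01%), 38 higher in females and 97 in males, and Eef1a2 alone passed with opposite signs (-1.05 and 0.64), its Affymetrix call being lost without female pool 1 or male pool 1 or 3. For genes of at least 1 log2 unit, 32 of 69 higher in females and 69 of 97 higher in males also passed on CodeLink. Of all autosomal genes tested there, 2.06% passed higher in females and 7.93% in males, so the counts of the sexes stand against unlike shares. The median size of the genes of at least 1 log2 unit was 1.34 on Affymetrix and 1.24 on CodeLink. CodeLink alone called 635 genes, 131 higher in females and 504 in males, and after centring on the 75th percentile 170 and 291. The 635 became 300 without male pool 1, 356 without male pool 3 and 407 without female pool 1. Of the 102 genes whose sex differences differed between the genotypes, 67 were tested on CodeLink, 61 had the same sign and 26 passed (32 with the replicate number as a block). Over all 6355 autosomal genes tested there, 76 passed this test (129 with the block). The share of all genes with the same sign in this test was not counted.

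**Figure D5:**
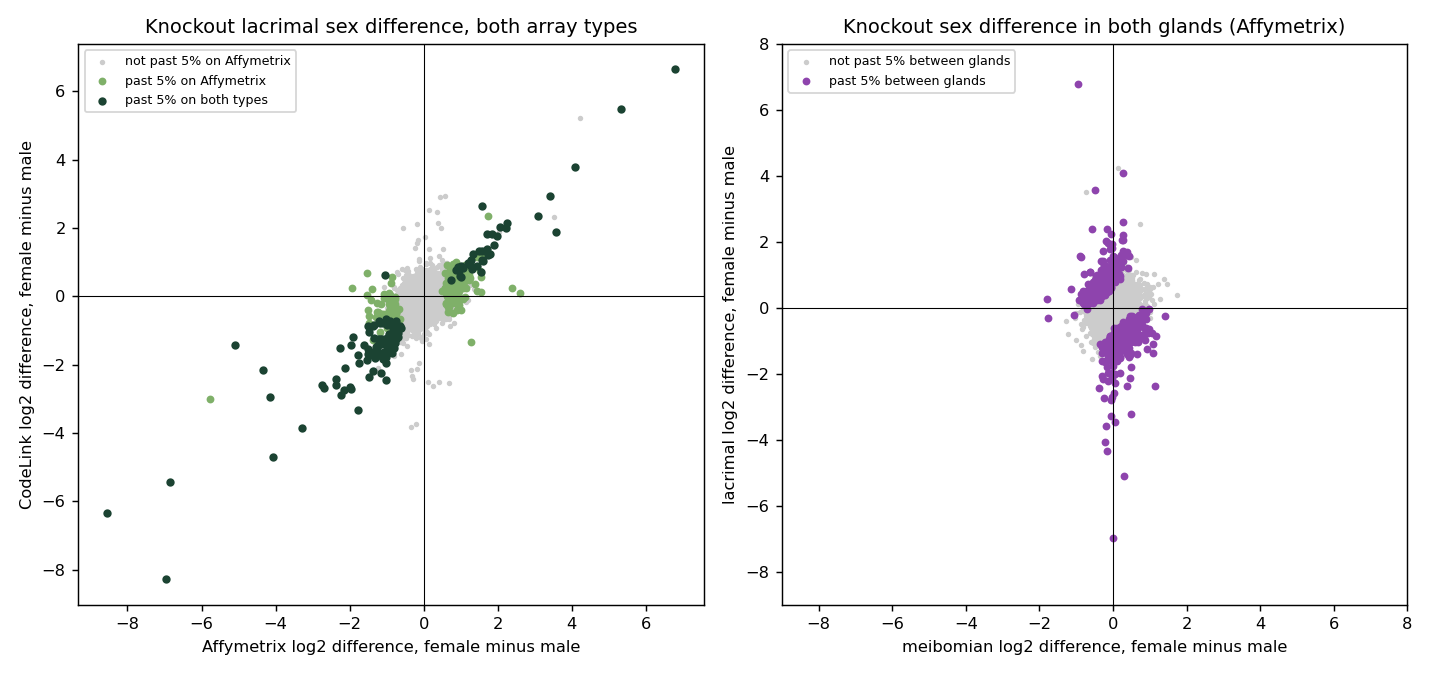
Left, log2 sex difference (female minus male) in knockout lacrimal glands on CodeLink against Affymetrix for the genes tested on both, coloured by where they passed. Right, the sex difference in knockout lacrimal (vertical) against knockout meibomian glands (horizontal) on Affymetrix, with genes that passed the test between glands in colour. Most of the genes that passed on Affymetrix have the same sign on CodeLink (282 of 326), whereas the right panel spreads more along the lacrimal axis (median size 0.25 over all autosomal genes) than along the meibomian axis (0.17).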

How the data were processed

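Lacrimal RNA of knockout and wild type mice and meibomian RNA of knockout mice was labelled with biotin from 2 µg total RNA, per the labels' protocols. The deposited Affymetrix intensity is 1 value per probe set, made with GCOS, per the submitters' processing notes, which give no settings. The CodeLink files hold, per the file headers, background-subtracted spot intensity, and the deposited value is this divided by 1 factor per array. Detection calls, scanner settings and scan dates were not used here.

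A pseudocount equal to the 20th percentile of the values above 0 (4.4 on Affymetrix, 0.3055 on CodeLink) was added, log2 taken and each array centred on its median. Printed Affymetrix levels are back on the linear scale, and folds are on the scale with the pseudocount, which understates the change of dim genes. Each gene was taken from its brightest probe set or spot, and the brightest 60% of genes entered the tests, 7436 on Affymetrix and 6562 on CodeLink. A dimmer Affymetrix probe set had the opposite sign for some named genes, for example Cryab (-0.24), Mt1 (0.16) and Tfcp2l1 (-0.31). For others, such as B2m (-1.59) and Psat1 (2.37), it had a like value. In R 4.3.3, limma 3.58.1 (lmFit, then eBayes with trend) fitted 4 group means to the 12 lacrimal arrays of each type, or 8 to the 24 of both glands. Benjamini-Hochberg adjustment ran over all genes tested, at 5%. A CodeLink fold was not printed. The fits were tested on simulated data. Python 3.11.15, pandas 2.3.3 and matplotlib 3.10.9 served for tables and figures. The number of arrays limits the precision.

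Genes were named by rule: sex chromosome genes, the 30 largest differences per sex, up to 8 members of each gene list with the smallest p, and the largest differences between genotypes (8 per direction) and glands (6 per direction), with the genes called in both genotypes. The members, lists and rule were chosen with earlier results of these data known. Esr1, Fmo5, Klk1b1, Klk1b5, Klk1b8, Eef1a2, Srsf5, Atg9b, Ccl4, Sdhd and Uqcrfs1 lie outside the rule and were named after their values were seen. Replicate numbers did not pair the knockout sexes: same-numbered pools correlated at -0.113, 0.068 and 0.187 on Affymetrix and 0.013, -0.383 and -0.041 on CodeLink. In wild types these were 0.176, 0.099 and 0.061, and on CodeLink 0.707, 0.389 and 0.175, so only the last 3 were all above 0.1. Of the 12 lacrimal Affymetrix arrays, 10 were closest to the CodeLink array of their own number. Alternatives covered the pseudocount, scaling, filter, probe choice, model and each pool left out. No single-gene probe for Cyp19a1 was used here, so the knockout itself was not checked. Promoters and coordinates are those of RefSeq for GRCm38.p6.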

Additional observations from a re-analysis of the deposited data

Results flagged for a closer look

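The sex difference (log2, female minus male) of the genes below differed between knockout and wild type lacrimal glands, or between the lacrimal and meibomian glands of the knockouts, by a test of the difference itself. Between genotypes, knockout minus wild type, it was lower for Ddc (-7.34), Klk1b27 (-6.77), Nmu (-6.67), Smr2 (-4.46), Klk1b21 (-4.23), Klk1b24 (-4.18), Pcdh20 (-3.29) and Tgm2 (-2.71). Of these, Ddc, Klk1b27, Nmu, Smr2, Klk1b21, Klk1b24 and Pcdh20 were near the floor in wild type females on Affymetrix and much brighter there in knockout males than in any other group. Those bright pools helped these genes past the brightness filter, which favours this pattern among the genes tested. The sex difference was higher for Ly6f (6.44), Cuzd1 (5.43), Ly6g2 (5.23), Cyp2j13 (5.22), Prol1 (3.43), B4galt1 (3.40), Mug1 (3.23) and B4galt6 (3.12). Among these, Ly6f, Cyp2j13 and B4galt6 were low in wild type females alone, and B4galt1 and Mug1 were lowest in knockout males.

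Between glands, lacrimal minus meibomian, the difference was lower for Nmu (-6.96), Smr2 (-5.40), Sgk3 (-4.20), Acsbg1 (-3.87), Olfml3 (-3.70) and Lcn2 (-3.52). It was higher for Pnliprp1 (7.74), Arg2 (4.06), B4galt1 (3.80), Psat1 (2.96), Gpr155 (2.57) and Cmya5 (2.47). The meibomian sex difference of these 12 genes ran from -0.95 for Pnliprp1 to 0.48 for Olfml3, and 0 of 12 passed (smallest adjusted p 0.074, for Cmya5). Nmu was bright in the meibomian pools of both sexes, whereas in the lacrimal gland it was bright in knockout males alone.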

How the results depend on the processing

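For 462 genes higher or lower between the knockout sexes on Affymetrix, quantile normalisation gave 734 (334 higher in females, 400 in males) and centring on the 75th percentile 815 (453 and 362). Leaving out 1 pool gave 218 to 597, with 218 without knockout female pool 1, 286 without female pool 2 and 235 without male pool 1. With only the pools low in salivary markers, an alternative added after seeing the data, 138 passed. The cause of these moves was not tested, except that fewer pools entered each of the latter. For 959 wild type genes the range over single pools was 443 (without wild type male pool 2) to 1532 (without knockout male pool 2), with 613 and 565 without wild type female pools 1 and 2. For the 102 genes that differed between the genotypes it was 66 to 268, both on leaving out a knockout male pool (1 and 2), and a pseudocount at the 40th percentile gave 161. For 495 genes that differed between glands it was 246 (without meibomian female pool 3) to 683, with 262 without meibomian female pool 1, 316 without meibomian male pool 3 and 314 without lacrimal female pool 1. For 635 CodeLink genes it was 300 (without male pool 1) to 668, with 356 without male pool 3 and 407 without female pool 1. Quantile normalisation gave wild type splits of 480 and 506 (females and males), 87 and 53 between genotypes and 169 and 342 on CodeLink.

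Replicate numbers did not pair the knockout sexes on either array type, but the wild type sexes on CodeLink correlated above 0.1 in every same-numbered pair. There the block moved the 26 genes that differed between genotypes on both array types to 32. With the replicate block 488 Affymetrix genes passed, against 462, and 780 CodeLink genes, against 635. The sign turned on CodeLink for B4galt6 (0.35), Cct2 (-0.22), Cox6b1 (-0.20), Dhcr7 (-0.47), Eef1a2 (0.64), Sdhd (-0.71), Tbc1d24 (0.39) and Uqcrfs1 (-0.53), and with the salivary sum as a covariate for B4galt6 (0.028) and Klk1 (-0.0075), which was -0.43 with only the pools low in those markers. Uqcrfs1 also turned there (-0.029) and, over single knockout and wild type pools left out, ran from -0.060 (without knockout male pool 2) to 0.30. Of these, only Cct2, Cox6b1, Dhcr7, Eef1a2 and Tbc1d24 had passed. Slide and scan were not run as a block because no file used here gives them.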
